A study of Mus musculus with 8 samples.

Results

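Neutrophil granule and maturation genes were followed as a set of 34 symbols, chosen by name from knowledge of the lineage. Earlier results of these data were known at that choice. Shares of members beside shares of all genes thus describe the set and do not test it. Of the 34 symbols, 33 were present among the 23284 genes of the table. Ly6g, the remaining symbol, was not analysed here. The 33 comprised 4 early granule genes (Elane, Mpo, Prtn3 and Ctsg), 9 genes of the late granule stage (Ngp, Camp, Ltf, Lcn2, Cd177, Olfm4, Fcnb, Pglyrp1 and the regulator Cebpe), 15 genes of the mature neutrophil and 5 genes of the stefin A cluster. RNA was taken from whole lungs of 8 wild-type (WT) C57BL/6 recipients, all of which had received a bone marrow transplant and then spent 3 days in hypoxia. In 4 recipients the donor marrow was triply n/i/eNOS-/-, lacking all 3 nitric oxide synthases (called NOS-null marrow here), and in the other 4 it was WT (called WT marrow). Cells of the recipients kept all 3 synthase genes in both groups, the share of blood cells of donor origin was not measured here, and the age of the mice is not given in the sources used here. Normal-air lungs were not analysed here, and the comparison is between marrow genotypes under hypoxia.

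Neutrophils are made in the bone marrow under granulocyte colony-stimulating factor, which acts through the receptor encoded by Csf3r. Their granule proteins are made in waves: promyelocytes transcribe the azurophil (early) granule proteases and myeloperoxidase, myelocytes and metamyelocytes transcribe the specific and gelatinase (late) granule proteins under the factor C/EBP-epsilon, and mature cells lose most granule transcripts while gaining receptors for chemoattractants. The lung holds a large pool of mature neutrophils in its capillaries, and some granule proteins, lactoferrin among them, are also made by epithelium.

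The promoters of 5 members are shown, 3 of early granule genes, 1 of a late granule gene and 1 of a mature neutrophil gene, as examples of stages whose genes are compared here. They run from 250 bases before to 50 bases after the transcription start in RefSeq (GRCm38.p6, all on the + strand), and capitals mark matches to GAGGAAGT, a site for the myeloid factor PU.1, or to TTGCNNAA, a site for C/EBP factors, each searched on both strands. The windows are chr10:79886062-79886361 for Elane (neutrophil elastase), chr11:87793534-87793833 for Mpo (myeloperoxidase), chr10:79879417-79879716 for Prtn3 (proteinase 3), chr9:110419558-110419857 for Ngp (neutrophilic granule protein) and chr3:90668821-90669120 for S100a8 (a calcium-binding subunit of calprotectin).
Elane: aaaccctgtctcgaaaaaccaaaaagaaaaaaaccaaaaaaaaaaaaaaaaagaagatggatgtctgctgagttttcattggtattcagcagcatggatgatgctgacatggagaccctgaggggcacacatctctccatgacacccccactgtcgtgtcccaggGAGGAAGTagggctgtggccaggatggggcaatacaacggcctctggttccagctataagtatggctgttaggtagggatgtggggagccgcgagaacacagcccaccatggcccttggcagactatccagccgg
Mpo: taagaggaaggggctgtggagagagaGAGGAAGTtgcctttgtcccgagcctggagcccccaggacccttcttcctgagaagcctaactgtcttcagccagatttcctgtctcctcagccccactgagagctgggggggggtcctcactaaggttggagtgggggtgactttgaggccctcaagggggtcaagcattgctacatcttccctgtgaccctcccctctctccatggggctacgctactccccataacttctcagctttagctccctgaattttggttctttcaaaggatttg
Prtn3: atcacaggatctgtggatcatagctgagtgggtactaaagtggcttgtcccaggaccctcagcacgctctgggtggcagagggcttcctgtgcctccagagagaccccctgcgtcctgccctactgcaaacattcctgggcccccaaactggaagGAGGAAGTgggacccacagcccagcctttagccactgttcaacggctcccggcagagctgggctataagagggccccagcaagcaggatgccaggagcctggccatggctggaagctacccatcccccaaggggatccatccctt
Ngp: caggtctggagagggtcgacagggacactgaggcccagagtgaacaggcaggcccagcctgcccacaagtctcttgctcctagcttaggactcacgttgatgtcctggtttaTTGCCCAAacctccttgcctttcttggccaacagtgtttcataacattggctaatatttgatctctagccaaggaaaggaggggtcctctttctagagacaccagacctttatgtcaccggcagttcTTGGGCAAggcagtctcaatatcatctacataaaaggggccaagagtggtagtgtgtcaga
S100a8: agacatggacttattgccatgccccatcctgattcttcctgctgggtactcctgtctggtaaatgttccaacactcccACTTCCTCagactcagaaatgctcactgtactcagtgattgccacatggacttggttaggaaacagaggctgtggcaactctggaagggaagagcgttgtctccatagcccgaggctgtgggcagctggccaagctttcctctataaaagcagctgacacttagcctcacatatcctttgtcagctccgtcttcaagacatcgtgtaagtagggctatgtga
Of 30 members with a promoter in the table, 5 held the PU.1 letters (Elane, Mpo, Prtn3, Olfm4 and S100a8), a match present in 3.2% of all 32851 promoters. The C/EBP letters were in 7 (Ngp, Ltf, Lcn2, Fcnb, S100a9, Sorl1 and Stfa1) and in 10.8% of all promoters. Thus 3 of the 4 early granule promoters carried the PU.1 letters and none the C/EBP letters, while 4 of the 8 late granule promoters carried the C/EBP letters. A match is a description of the sequence and not of binding.

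Levels are given as scaled reads, deposited values that step like read counts divided by a factor for each library and summed to 7767065 to 8625142 per library. One read was worth 0.937 to 1.088 scaled reads, so a value of 0 allows a level of up to 2.81 to 3.26 scaled reads (3 reads, counting error only). Where 4 values are given for a group, they run from replicate 1 to replicate 4. Of the deleted genes, Nos2 stood at 13.3, 20.8, 40.4 and 43.5 scaled reads with NOS-null marrow and at 87.4, 115, 88.7 and 103 with WT marrow, while Nos3 stood at 177 to 219 with NOS-null marrow, against 171 to 207 with WT marrow, and Nos1 was at or below 1.09 in all 8 libraries. The lung markers Sftpc, Scgb1a1, Ager and Cdh5 were abundant in all 8 libraries, with 64852 to 94477 scaled reads of the surfactant gene Sftpc in NOS-null marrow lungs and 88163 to 112303 in WT marrow lungs. The labels name no litters or cages, and p-values reflect the spread among these 8 samples alone.

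Most members had their highest values in 1 of the 4 NOS-null marrow lungs. NOS-null marrow replicate 1 was the highest of the 8 libraries for 31 of the 33 members, and NOS-null marrow replicate 2 came second for 27 of them. The 2 members led by another library, NOS-null marrow replicate 4, were Cebpe and G0s2. In 14 of the 33 every NOS-null marrow library lay above every WT marrow library and in none did every one lie below, while of the 19741 genes above 0 in any library 6.35% were separated in the first direction and 6.89% in the second. In whole lung RNA, more neutrophils and more of a transcript per neutrophil cannot be told apart.

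**Figure D1:**
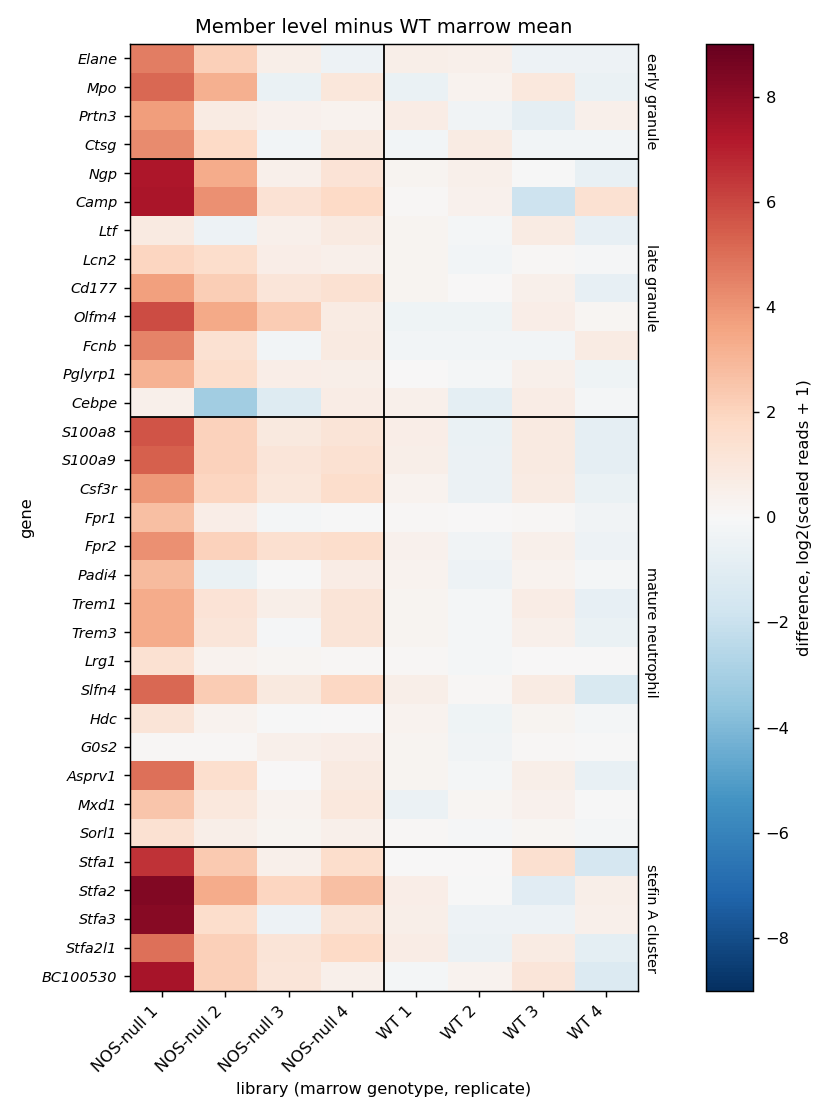
Level of each of the 33 members (rows, grouped by stage) in each library (columns, 4 NOS-null marrow at left and 4 WT marrow at right) as the difference of log2(scaled reads + 1) from the mean of the 4 WT marrow libraries. NOS-null marrow replicate 1 is the darkest red column, replicate 2 follows, and Ltf, Lrg1, Hdc, G0s2 and Cebpe stay pale or blue across the row.

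For testing, a gene needed 10 or more scaled reads in 4 or more libraries, and 22 members qualified, each with at least 1 library at 10 or more in both groups. With limma and Benjamini-Hochberg adjustment over 14008 genes, 2 of the 22 rose, 0 fell and 20 did not pass an adjusted p of 0.05, while 1.87% of all tested genes were called higher and 2.18% lower. The members that rose were Fpr2 and Cd177. At an unadjusted p under 0.05, 14 of the 22 stood higher, as did 13.3% of all tested genes. Groups did not overlap in 12 of the 22, all higher with NOS-null marrow, where 7.82% of the genes tested were separated that way and 9.29% the other way.

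The calls moved with the libraries included. Without NOS-null marrow replicate 1 the members that rose were 4, Cd177, Csf3r, Fpr2 and Stfa2l1 (1.77% of all tested genes called higher in that fit). Without NOS-null marrow replicate 3 they were 7 (2.63%), with Lcn2, Mxd1 and Slfn4 in addition, and without NOS-null marrow replicate 4 they were 3 (2.93%), Cd177, Fpr2 and Lcn2. Without NOS-null marrow replicate 2, or without any 1 of the 4 WT marrow replicates, 0 members were called by limma, while 11 to 14 stood higher at an unadjusted p under 0.05. In those 5 fits, in that order, 0.385%, 0.314%, 0.35%, 0.371% and 0.928% of all tested genes were called higher, and 9.94%, 10.2%, 11.4%, 11.4% and 12.2% stood higher at an unadjusted p under 0.05. One member, Fpr2, was called without NOS-null marrow replicates 1 and 2 (0.692% of all tested genes), with the replicate number as a block (0.578%), from the FPKM table (1.57%) and with no filter on low values (1.04%). With TMM scaling the same 2 were called (2.01%), and with a robust variance none was (1.99%), with 11 at an unadjusted p under 0.05 (12.9%).

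**Figure D2:**
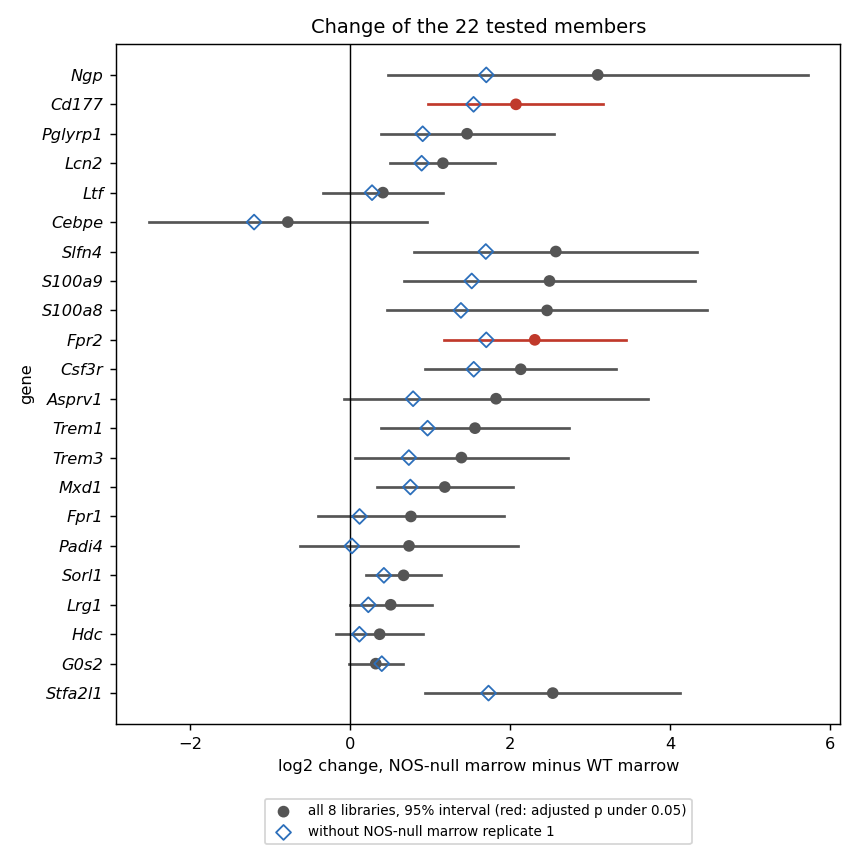
Log2 change with its 95% interval (horizontal axis) for each of the 22 tested members (rows, by stage), NOS-null marrow minus WT marrow, with open diamonds for the same value without NOS-null marrow replicate 1. Fpr2 and Cd177, in red, passed an adjusted p of 0.05, 21 of the 22 points lie right of 0, and the diamonds lie left of the points except for G0s2.

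Among receptors of the mature neutrophil, Fpr2, a formyl peptide receptor that senses bacterial and host peptides (chromosome 17, 17887824 to 17893952, GRCm38), stood at 1864, 445, 289.9 and 323 scaled reads with NOS-null marrow, against 140.1, 83.4, 143 and 75.6 with WT marrow. The groups did not overlap, and NOS-null marrow replicates 2 to 4 lay closer to WT marrow than to replicate 1. Its means were 730.4 ± 759 and 110.5 ± 36.0 (SD, n = 4 each), with a log2 change of 2.31 (SE 0.51, limma adjusted p = 0.0397). Of the distinct 75-base stretches of its transcripts 20.9% also occur in transcripts of Gm5966 or Fpr3, so reads there may have been split between copies.

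Fpr1, the neighbouring formyl peptide receptor (chromosome 17, 17876471 to 17883940), overlapped between the groups. It stood at 572, 134, 76.9 and 84.8 scaled reads with NOS-null marrow, against 97.4, 92.7, 93.6 and 71.8 with WT marrow. Replicates 3 and 4 of NOS-null marrow lay within the WT marrow range, and the log2 change of 0.76 (95% interval −0.40 to 1.92) had an adjusted p of 0.367 with limma. Without NOS-null marrow replicate 1 the log2 change was 0.12 for Fpr1 and 1.70 for Fpr2, and the difference between the 2 genes was not tested.

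Csf3r, the receptor for granulocyte colony-stimulating factor, had a pattern close to that of Fpr2. It stood at 2543, 669, 354 and 522 scaled reads with NOS-null marrow, against 218, 118, 287 and 114 with WT marrow. All 4 NOS-null values lay above the WT marrow values, and the log2 change was 2.13 (SE 0.54, limma adjusted p = 0.0532, and 0.0314 without NOS-null marrow replicate 1). Trem1, an amplifier of inflammatory signals on myeloid cells, stood at 441, 104, 61.1 and 94.6 scaled reads with NOS-null marrow and at 50.7, 38.4, 67.0 and 25.5 with WT marrow. Replicate 3 of NOS-null marrow lay below the highest WT marrow value, as it did for Trem3, a related receptor gene next to Trem1 on chromosome 17 that ranged from 13.8 to 159.9 in NOS-null marrow lungs and from 9.45 to 20.7 in WT marrow lungs. The log2 changes of Trem1 and Trem3 were 1.56 and 1.39 (limma adjusted p = 0.105 and 0.174).

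S100a8 and S100a9 encode the 2 subunits of calprotectin, the most abundant cytosolic protein of neutrophils, and lie beside each other on chromosome 3 (90668978 to 90670035 and 90692632 to 90695721). S100a8 stood at 39729, 3246, 1428 and 1736 scaled reads with NOS-null marrow, against 1141, 518, 1336 and 441 with WT marrow. S100a9 stood at 29866, 2961, 1489.8 and 1857 with NOS-null marrow, against 1022, 485, 1248 and 396 with WT marrow. For both genes the lowest NOS-null marrow library lay just above the highest WT marrow library, and replicate 1 alone held 86.1% of the S100a8 and 82.6% of the S100a9 in the 4 NOS-null marrow libraries together. Log2 changes were 2.46 (SE 0.90, limma adjusted p = 0.124) for S100a8 and 2.49 (SE 0.82, adjusted p = 0.0969) for S100a9. Replicate 1 stood 46.2-fold above the WT marrow mean for S100a8, and the mean of the other 3 stood 2.49-fold above it.

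Among other genes of mature cells, Slfn4, an interferon-inducible Schlafen gene of myeloid cells, stood at 2238, 298, 113 and 225 scaled reads with NOS-null marrow, against 86.4, 65.6, 101 and 22.7 with WT marrow. The groups did not overlap (log2 change 2.57, SE 0.80, limma adjusted p = 0.0839). Asprv1, a retroviral-like protease gene of neutrophils and skin, held 1209.8 scaled reads in the first NOS-null marrow lung and 39.4 to 112 in its group's remaining lungs, against 24.6 to 57.2 with WT marrow. Padi4, whose enzyme citrullinates histones when neutrophils release chromatin, held 229.7 in that lung and 19.8 to 50.0 in its group's remaining lungs, against 21.5 to 38.4 with WT marrow. Thus the Asprv1 and Padi4 values of NOS-null marrow replicates 2 to 4 overlapped those with WT marrow, and their log2 changes of 1.82 and 0.73 had limma adjusted p-values of 0.205 and 0.463.

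Mxd1, a MYC antagonist that accompanies terminal differentiation, stood at 1311, 455, 299 and 459 scaled reads with NOS-null marrow, against 162, 269.8, 304 and 232 with WT marrow, and replicate 3 lay within the WT marrow range. Sorl1, a sorting receptor gene, stood at 542 to 1191 with NOS-null marrow, against 401 to 517 with WT marrow without overlap (log2 changes 1.18 and 0.67, limma adjusted p = 0.0946 and 0.0908). Lrg1, which encodes a leucine-rich glycoprotein of neutrophil granules that endothelium also makes, stood at 1154 to 2702 with NOS-null marrow, against 928 to 1154 with WT marrow (log2 change 0.50, limma adjusted p = 0.194). The nearest Lrg1 libraries of the groups were less than 1 scaled read apart, so that their order rests on the scaling of the libraries. Hdc, the histamine-forming enzyme gene that mast cells and basophils also use, stood at 518 to 1151 with NOS-null marrow, against 409 to 645 with WT marrow, and G0s2, a lipase inhibitor gene also used by fat cells, at 384 to 558 with NOS-null marrow, against 292 to 429 with WT marrow. Hdc and G0s2 overlapped between the groups (log2 changes 0.37 and 0.32, adjusted p = 0.355 and 0.21), and G0s2 was lower in NOS-null marrow replicate 1 than in the other 3 of its group.

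**Figure D3:**
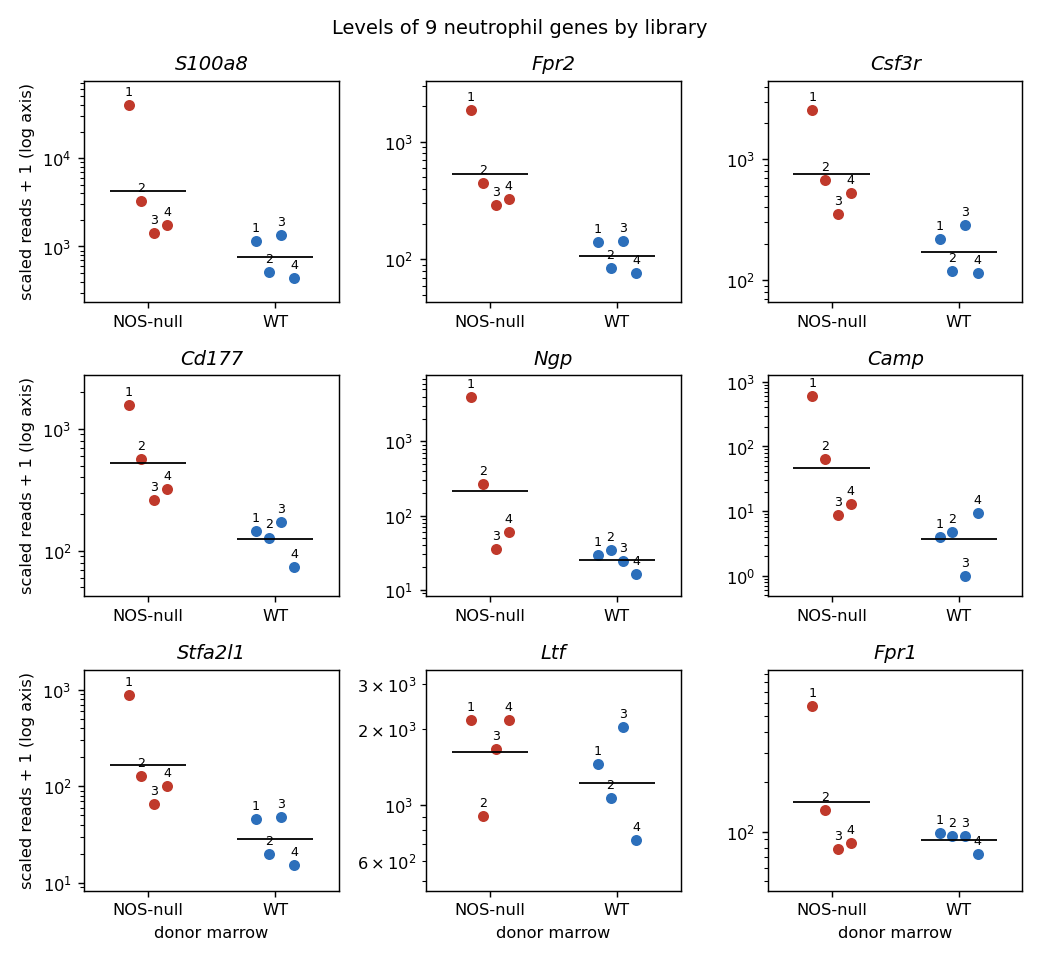
Scaled reads plus 1 (log axis) of 9 members in each NOS-null marrow library (red, left) and WT marrow library (blue, right), numbered by replicate, with a line at the mean on the log scale. The groups are separate for S100a8, Fpr2, Csf3r, Cd177, Ngp and Stfa2l1 and overlap for Camp, Ltf and Fpr1.

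Late granule genes ranged with WT marrow from a few reads to over 1000 scaled reads. Ngp, a cathelicidin-related granule protein gene (chromosome 9, 110419747 to 110423012), stood at 3907, 261, 34.5 and 58.7 scaled reads with NOS-null marrow, against 28.8, 33.7, 23.7 and 15.1 with WT marrow. No scaled value of Ngp overlapped (log2 change 3.09, SE 1.18, limma adjusted p = 0.136). However, replicate 3 exceeded the highest WT marrow library by less than 1 scaled read, so that their order rests on the scaling of the libraries. Camp, the cathelicidin gene on the same chromosome (109847379 to 109849617), stood at 604, 63.5, 7.89 and 12.0 with NOS-null marrow, against 2.98, 3.75, 0 and 8.51 with WT marrow. NOS-null marrow replicates 1, 2 and 4 lay above all WT marrow libraries for Camp and replicate 3 did not, and Camp was below the level set for testing.

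Olfm4, an olfactomedin of a subset of specific granules, stood at 149.7, 27.1, 11.8 and 3.26 scaled reads with NOS-null marrow, against 0.994, 0.937, 2.96 and 1.89 with WT marrow. Its groups did not overlap, but NOS-null marrow replicate 4 and WT marrow replicate 3 both correspond to 3 reads, so that their order rests on the scaling of the libraries. Fcnb, a ficolin gene of developing neutrophils, stood at 25.6, 2.08, 0 and 1.09 with NOS-null marrow, against 0, 0, 0 and 0.945 with WT marrow, so NOS-null marrow replicate 1 was the single library above 3 reads. Neither reached the level set for testing.

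Cd177, a surface glycoprotein stored in specific granules (chromosome 7, 24743983 to 24760311), was the late granule gene that rose. It stood at 1569.7, 562, 258 and 322 scaled reads with NOS-null marrow, against 145, 127, 171 and 72.8 with WT marrow. Every NOS-null marrow library lay above the highest WT marrow library, with means of 678 ± 609 and 129 ± 41.7 (SD, n = 4 each) and a log2 change of 2.07 (SE 0.49, limma adjusted p = 0.0466). The adjusted p of Cd177 was 0.0278 without NOS-null marrow replicate 1, 0.126 without replicate 2, and 0.086 to 0.127 without 1 WT marrow replicate. Fpr2 ran likewise, at 0.00706, 0.0986 and 0.0803 to 0.106. With the replicate number of the labels as a block, Cd177 did not pass (adjusted p = 0.0567) and Fpr2 did (0.043).

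Lcn2, the gene of the iron-siderophore binding lipocalin, stood at 6464, 5047, 2573 and 2276 scaled reads with NOS-null marrow, against 1937, 1431, 1773 and 1570.2 with WT marrow. Here replicates 1 and 2 both lay clear of the other 6 libraries (log2 change 1.16, SE 0.30, limma adjusted p = 0.0542). Pglyrp1, a peptidoglycan recognition protein of granules, stood at 226 to 1405 with NOS-null marrow, against 125 to 218 with WT marrow without overlap (log2 change 1.46, SE 0.49, adjusted p = 0.10003). Ltf, the lactoferrin gene, which glandular and airway epithelium also uses, stood at 2159, 904, 1666 and 2159 with NOS-null marrow, against 1447, 1063, 2033 and 726 with WT marrow. Its groups overlapped, with NOS-null marrow replicates 1 and 4 the highest of the 8 and WT marrow replicate 4 the lowest, and NOS-null marrow replicate 2, second for most members, was the second lowest of the 8 for Ltf (log2 change 0.41, 95% interval −0.34 to 1.15, adjusted p = 0.455). Cebpe, the gene of the factor that drives late granule genes in the marrow, stood at 11.3, 0, 2.96 and 13.1 with NOS-null marrow, against 10.9, 3.75, 12.8 and 6.62 with WT marrow, near the limit of detection in both groups, and was the single tested member with a negative log2 change (−0.78, 95% interval −2.52 to 0.95, adjusted p = 0.541).

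Early granule genes were at or near 0 in most lungs and detectable in NOS-null marrow replicate 1. Elane stood at 32.8, 5.21, 0.991 and 0 scaled reads with NOS-null marrow, against 0.995, 0.937, 0 and 0 with WT marrow. Mpo stood at 54.3, 13.5, 0 and 2.18 with NOS-null marrow, against 0, 0.937, 1.97 and 0 with WT marrow, and Ctsg, the cathepsin G gene, at 21.5, 3.12, 0 and 1.09 with NOS-null marrow, against 0, 0.937, 0 and 0 with WT marrow. For these 3 genes no library other than NOS-null marrow replicates 1 and 2 held over 3 reads. Prtn3 stood at 92.3, 10.4, 7.89 and 7.61 with NOS-null marrow, against 9.94, 4.68, 2.96 and 8.51 with WT marrow, so NOS-null marrow replicates 2 to 4 were close to the WT marrow range. None of the 4 reached the level set for testing, and with no filter their limma adjusted p-values were 0.249 to 0.332. Elane and Prtn3 lie beside each other on chromosome 10, and 5.06% of the 75-base stretches of Prtn3 also occur in transcripts of Plppr3.

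The stefin A genes, which encode small inhibitors of cysteine proteases and cluster on mouse chromosome 16 (36156811 to 36455392 from Stfa2l1 to Stfa3), had the largest mean log2 difference of the 4 stages in NOS-null marrow replicate 1. Stfa2l1 stood at 873, 127, 64.1 and 100.1 scaled reads with NOS-null marrow, against 44.7, 18.7, 47.3 and 14.2 with WT marrow, without overlap (log2 change 2.53, SE 0.72, limma adjusted p = 0.0676). Stfa2 stood at 658, 19.8, 6.90 and 12.0 with NOS-null marrow, against 1.99, 0.937, 0 and 1.89 with WT marrow. Both genes were separated between the groups.

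The other 3 stefin A genes had most of their reads in NOS-null marrow replicate 1 among these libraries. Stfa3 stood at 402, 3.12, 0 and 2.18 scaled reads with NOS-null marrow, against 0.994, 0, 0 and 0.945 with WT marrow. BC100530 stood at 401, 9.37, 3.94 and 2.18 with NOS-null marrow, against 0.994, 1.87, 3.94 and 0 with WT marrow, and Stfa1 at 257, 13.5, 2.96 and 7.61 with NOS-null marrow, against 1.99, 1.87, 6.90 and 0 with WT marrow. NOS-null marrow replicate 1 held 98.7%, 96.3% and 91.4% of the Stfa3, BC100530 and Stfa1 in its group. The genes resemble each other: 25.6% of the 75-base stretches of BC100530 transcripts and 9.15% of those of Stfa1 also occur in another gene, among them each other, so their separate values are uncertain.

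Set side by side, all 4 stages stood highest in NOS-null marrow replicate 1. In replicate 1 the mean log2 difference from the WT marrow mean was 4.44 for the 4 early granule genes, 3.89 for the 9 late granule genes, 3.20 for the 15 mature neutrophil genes and 7.08 for the 5 stefin A genes. In replicate 2 it was 1.97, 1.57, 1.11 and 2.32 in the same order of stages. Both libraries thus had early above late above mature genes, on a scale that understates differences of genes near 0. In replicate 3 the means were −0.0022, 0.60, 0.45 and 0.85, and in replicate 4 they were 0.42, 0.94, 0.91 and 1.55, so in these lungs the early granule genes were the lowest of the 4 stages. WT marrow libraries ranged from −0.23 to 0.30 for early, −0.14 to 0.10 for late, −0.46 to 0.44 for mature and −0.53 to 0.36 for stefin A genes.

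**Figure D4:**
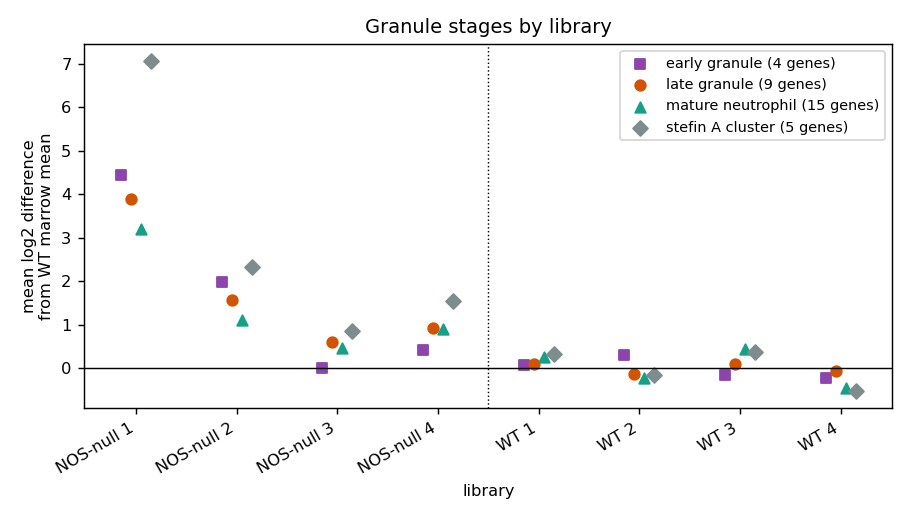
Mean over the genes of a stage of the difference of log2(scaled reads + 1) from the WT marrow mean (vertical axis) in each library, NOS-null marrow at left and WT marrow at right of the dotted line. All 4 stages are highest in NOS-null marrow replicate 1, from 3.20 to 7.08, and lie between −0.53 and 0.44 in the WT marrow libraries.

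Over the members present, the median log2 difference between the groups was 1.68 for early granule, 1.62 for late granule, 1.39 for mature neutrophil and 2.72 for stefin A genes, beside 0.0078 over the 19741 genes above 0 in any library. Without NOS-null marrow replicate 1 these medians were 0.76, 0.90, 0.75 and 1.46, and without NOS-null marrow replicates 1 and 2 they were 0.25, 0.63, 0.55 and 1.02. With a pseudocount of 5 in place of 1 they were 0.96, 1.44, 1.23 and 1.92, so the place of the early granule genes in this order depended on the pseudocount. A difference between stages was not tested, because genes of a stage share the same libraries.

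Levels were compared between genes by FPKM, fragments per kilobase of transcript scaled for depth, which takes transcript length into account. S100a8 was the highest member in NOS-null marrow lungs, at 25736, 2103, 925 and 1124 FPKM in replicates 1 to 4, against 739, 336, 866 and 286 FPKM with WT marrow. S100a9 ran with it, at 49.4 to 70.3% of the S100a8 FPKM in NOS-null marrow lungs and 58.9 to 61.6% in WT marrow lungs. Among receptor genes, Csf3r was at 1.02 to 1.49% of S100a8 in NOS-null marrow replicates 2 to 4 and at 0.955 to 1.30% with WT marrow, but at 0.318% in NOS-null marrow replicate 1. Fpr2 was likewise at 0.793% there, at 2.32 to 3.43% in replicates 2 to 4 and at 1.81 to 2.90% with WT marrow. Fpr1 was at 0.238% in the first NOS-null marrow lung and 0.683 to 0.889% elsewhere in that group, all below the 1.16 to 2.95% with WT marrow. For Trem1 and Trem3 too, NOS-null marrow replicate 1 was the lowest library, at 0.0725% and 0.0943%, against 0.290 to 0.484% and 0.363 to 0.593% with WT marrow. These low percentages follow from the larger rise of S100a8, since the receptor genes were themselves highest in that library. In scaled reads, S100a8 stood there 46.2-fold above the WT marrow mean. Csf3r, Fpr2, Fpr1, Trem1 and Trem3 stood 13.8-, 16.9-, 6.44-, 9.71- and 10.5-fold above it.

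Relative to S100a8, late granule genes had differing proportions. Ngp was at 1.90% and 1.55% of the S100a8 FPKM in NOS-null marrow replicates 1 and 2, at 0.467% and 0.653% in replicates 3 and 4, and at 0.342 to 1.26% with WT marrow. Lcn2 was at 4.64% in the first NOS-null marrow lung and 37.4 to 51.4% elsewhere in that group, against 37.9 to 101% with WT marrow. Ltf was at 0.395%, 2.02%, 8.47% and 9.03% in NOS-null marrow replicates 1 to 4, all below the 9.21 to 14.9% with WT marrow. The Ngp proportion was thus highest, and the Ltf proportion lowest, in NOS-null marrow replicates 1 and 2. These proportions also move with S100a8: Ltf itself held 2159 scaled reads in NOS-null marrow replicates 1 and 4 alike. The stefin gene Stfa3 was at 0.913% in the first NOS-null marrow lung and at most 0.113% elsewhere in that group, against at most 0.193% with WT marrow.

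**Figure D5:**
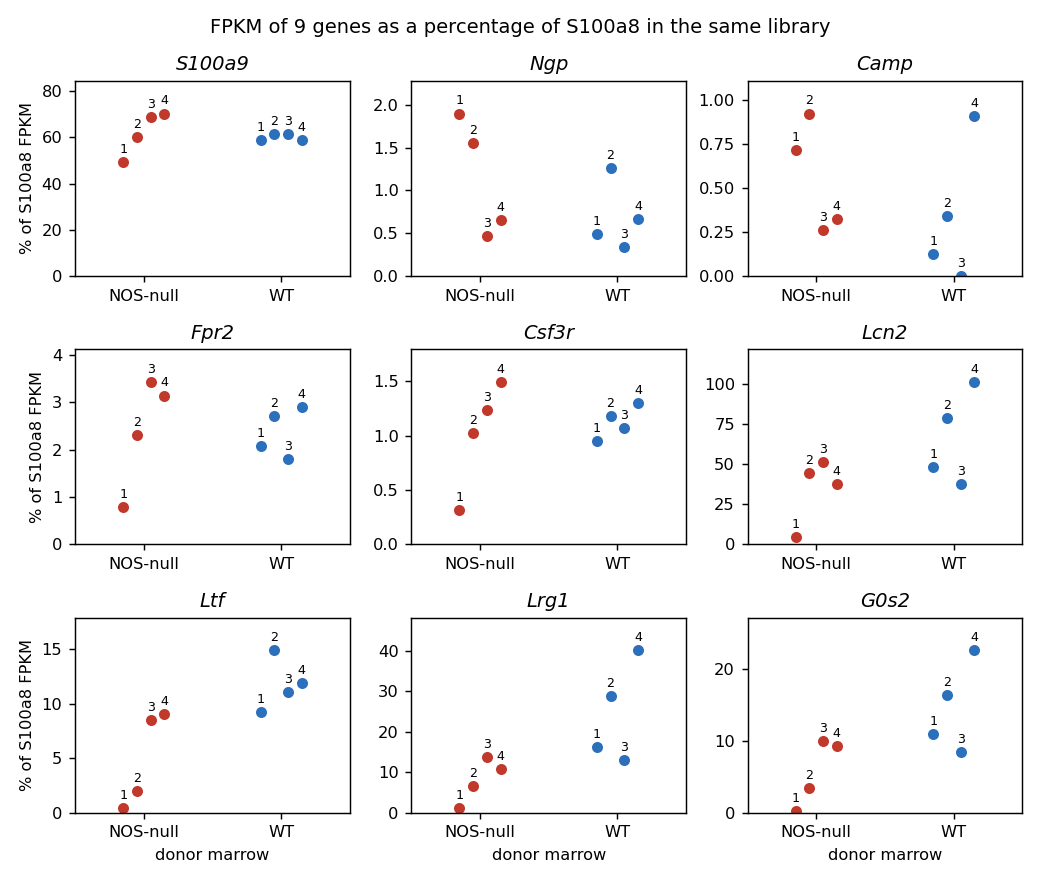
FPKM of 9 members as a percentage of the S100a8 FPKM of the same library (vertical axes start at 0), in NOS-null marrow (red, left) and WT marrow (blue, right) libraries numbered by replicate. S100a9 keeps near 60% in most libraries, and Ngp is highest in NOS-null marrow replicates 1 and 2. Lcn2, Ltf, Lrg1 and G0s2 are lowest in NOS-null marrow replicate 1, where S100a8 itself is highest.

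Other neutrophil genes, a list of 36 symbols that holds no member, summed to 62702, 28112, 22148 and 23871 scaled reads with NOS-null marrow, against 19920.3 to 26258 with WT marrow. Of 32 tested, 0 passed an adjusted p of 0.05 with limma, with or without a robust variance, while 19 stood higher at an unadjusted p under 0.05 and 31 had a positive log2 change. Mmp8, a collagenase of specific granules, stood at 5017, 633, 165 and 255 scaled reads with NOS-null marrow, against 113, 119, 121 and 65.2 with WT marrow. The groups did not overlap for Mmp8 (log2 change 2.56, limma adjusted p = 0.0996). Adam8, a metalloprotease of activated granulocytes, stood at 277 to 719 with NOS-null marrow, against 149 to 248 with WT marrow (log2 change 1.11, adjusted p = 0.051), and Ncf4, an NADPH oxidase subunit, at 161 to 980 with NOS-null marrow, against 76.6 to 137 with WT marrow (1.61, adjusted p = 0.0658). Without NOS-null marrow replicate 1, 4 of the 32 passed.

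Of 15 tested attractant and growth factor genes, none passed as higher, 2 stood higher and 4 lower at an unadjusted p under 0.05, and 1 fell, Cxcl12, the chemokine that retains neutrophils in the marrow and is made by many stromal cells, at 2408 ± 435 scaled reads with NOS-null marrow, against 4584 ± 116 with WT marrow (SD, n = 4 each, log2 change −0.95, SE 0.12, limma adjusted p = 0.00722). Csf3, which encodes granulocyte colony-stimulating factor, stood at 0.986 to 4.35 with NOS-null marrow, against 0.945 to 6.96 with WT marrow and was not tested. Cxcl5, a neutrophil chemokine of lung epithelium, stood at 13.3, 16.7, 93.7 and 113 with NOS-null marrow, against 257, 90.9, 217 and 41.6 with WT marrow (log2 change −1.58, limma adjusted p = 0.214). Its lowest values were in the 2 lungs highest in S100a8. Within WT marrow, by contrast, Cxcl5 was highest in the replicates highest in S100a8, which stood there at 1141, 518, 1336 and 441 scaled reads. Il1b, the interleukin 1 beta gene, stood at 1047, 620, 296 and 387 with NOS-null marrow, against 94.5 to 428 with WT marrow (log2 change 1.22, adjusted p = 0.143), and Csf1, a macrophage growth factor gene, at 357 to 431 with NOS-null marrow, against 256 to 349 with WT marrow without overlap (0.40, adjusted p = 0.0888). None of 10 adhesion partner genes passed with limma, with 1 at an unadjusted p under 0.05 and none with a robust variance, and of 10 granulocyte transcription factor genes 1 fell, the immediate early gene Egr1 (log2 change −0.71, adjusted p = 0.028).

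Markers of other cells differed as well, and their part in the neutrophil values was not tested. Monocyte and macrophage markers (18 in the table, 1 of them higher and 1 lower) summed to 32150.3, 26479, 14339 and 17010.4 scaled reads with NOS-null marrow, against 10829 to 13861 with WT marrow. The monocyte marker Ly6c2 stood at 761, 322, 146 and 150.1 with NOS-null marrow, against 100.2 to 144 with WT marrow, with replicates 1 and 2 of NOS-null marrow the highest. Other markers of the list did not have that order: the macrophage gene C1qa stood at 566, 1436, 725 and 659 with NOS-null marrow, against 413 to 609 with WT marrow. Chi3l3 alone held 22257.5 scaled reads in NOS-null marrow replicate 1, and without it the list summed to 9893, 11695, 6763 and 7180 with NOS-null marrow, against 4734 to 7135 with WT marrow. The eosinophil-type ribonuclease gene Ear2 was the marker that rose (log2 change 0.92, limma adjusted p = 0.0186) and Siglec5 the one that fell (−1.52, adjusted p = 0.00248). Marco, of the same list, was lower without overlap but did not pass (log2 change −2.81, limma adjusted p = 0.0585). It stood at 8.20, 13.5, 0 and 15.2 with NOS-null marrow, against 43.5 to 49.6 with WT marrow. Of the 18 markers, 16 had a positive log2 change. Lymphocyte markers (11, of which Gzma and Klrb1c fell) summed to 456, 885, 1085.5 and 1085.5 with NOS-null marrow, against 1477 to 2718 with WT marrow, and the B cell gene Ms4a1 was at 3.08 in NOS-null marrow replicate 1 against 257 to 590.1 with WT marrow. The T cell genes of that list had positive log2 changes that did not pass, 0.96 for Cd3e, 1.04 for Cd4, 0.67 for Cd3d and 0.36 for Cd8a (limma adjusted p = 0.149, 0.15, 0.198 and 0.603). Eosinophil markers (6) summed to 21.7 to 81.9 with NOS-null marrow, against 54.3 to 119 with WT marrow, with Epx, their peroxidase gene, at 0 in 2 NOS-null marrow and 3 WT marrow libraries. Mast cell and basophil markers (10) summed to 1242 to 2359 with NOS-null marrow, against 1161.5 to 1905 with WT marrow, and of these Ms4a2 was at 0 in NOS-null marrow replicates 2 and 3. Of the eosinophil and the mast cell markers 0 passed with limma, with 1 and 2 at an unadjusted p under 0.05, and 0 with a robust variance.

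Erythroid markers (9 in the table, 5 of 8 tested higher, among them Alas2, Hbb-b1, Hbb-b2 and Slc4a1, and 3 with a robust variance or without NOS-null marrow replicate 1) summed to 22801 to 30200.3 scaled reads with NOS-null marrow, against 11301 to 13869 with WT marrow, without the step between NOS-null marrow replicates 1 and 2 that the neutrophil genes show. Of 8 proliferation genes 3 fell, Mcm2, Mcm5 and Pcna, and none rose, and the mitotic gene Mki67 stood at 170.2, 281, 224 and 281 with NOS-null marrow, against 331, 338, 246 and 161 with WT marrow. NOS-null marrow replicate 1, the lung with the most early granule transcript, had the lowest Mki67 of its group, and WT marrow replicate 4 was lower still. A link between Mki67 and the early granule genes was not tested. Of 9 lung markers 0 passed with limma, with 1 at an unadjusted p under 0.05 and 0 with a robust variance.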

How the data were processed

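Whole lung RNA of 8 mice was sequenced as 75 bp single reads, per the labels' protocols. The submitters' processing notes name mm10, TopHat2 2.0.13, Cufflinks 2.2.1, Bowtie2 2.2.3, CASAVA 1.8.2 and SAMtools 0.1.19, with no role for each. No source used here gives the annotation or counting settings. The deposited count-scale table holds signal values; from the values themselves, they look like read counts divided by 1 factor per library. The deposited FPKM table, by the authors, served for levels between genes and as an alternative. Of positive values under 1000 in a library, 98.8 to 98.9% lay within 0.05 of a whole multiple of 1 step, taken as 1 read, but 8 to 15 values per library lay below it, so no count model was used.

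Sample titles gave the groups, since the design text of the series gives both arms NOS-null donors. Values plus 1 were log2-transformed and limma 3.58.1 was run on the 14008 genes reaching 10 in 4 or more libraries (R 4.3.3, trend on), NOS-null marrow minus WT marrow, with no covariate, at an adjusted p of 0.05. A log2 change on this scale understates the change of low genes. Members, stages and lists were chosen with earlier results of these data known. Every member is named; of other lists, genes past the threshold and otherwise up to 3, with the lung markers, T cell genes, C1qa, Chi3l3, Cxcl5, Csf1, Csf3, Il1b, Mmp8, Saa3 and Mki67 added after their values were seen; a marker gene past the threshold is not reported here. The 75-base stretches come from GENCODE M21 transcripts, positions from GRCm38 (mm10). Alternatives were 2 pseudocounts, no filter, trimmed-mean (TMM) scaling, FPKM, robust variance, a replicate block and leaving out libraries. Samples with the same number did not deviate together in all pairs, so the block is an alternative only.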

Additional observations from a re-analysis of the deposited data

Results flagged for a closer look

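In 25 of the 33 members, NOS-null marrow replicate 1 lay so far from the other 3 libraries of its group that its gap to the nearest, divided by the range of the group, exceeded Dixon's 95% limit for 4 samples. Chance alone flags about 1 in 20 groups of normally spread values. The members share the same lungs, so the 25 flags concern 1 library and are not independent. Its values in scaled reads were 32.8 for Elane, 92.3 for Prtn3, 21.5 for Ctsg, 3907 for Ngp, 604 for Camp, 149.7 for Olfm4 and 25.6 for Fcnb among granule genes. Among mature neutrophil genes they were 39729 for S100a8, 29866 for S100a9, 2543 for Csf3r, 572 for Fpr1, 1864 for Fpr2, 229.7 for Padi4, 441 for Trem1, 159.9 for Trem3, 2702 for Lrg1, 2238 for Slfn4, 1209.8 for Asprv1, 1311 for Mxd1 and 1191 for Sorl1. In the stefin A cluster they were 257 for Stfa1, 658 for Stfa2, 402 for Stfa3, 873 for Stfa2l1 and 401 for BC100530. Prtn3 is the single member flagged for this library on the log2 scale. In WT marrow, replicate 2 was flagged for Ctsg at 0.937 and replicate 4 for Fcnb at 0.945, each a single read beside 3 libraries at 0.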

How the results depend on the processing

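Of 352 member values recomputed for the 22 tested members under 16 alternatives, 157 with 1 library left out and 169 of the others kept their direction and their side of the threshold, 10 and 6 no longer passed, 8 and 0 newly passed, and 1 and 1 changed sign. With 1 library left out Cebpe ran from −1.27 to 0.0034 on the log2 scale, the positive value without NOS-null marrow replicate 2, and Fpr1 stood at −0.13 without NOS-null marrow replicates 1 and 2. The count of members called higher was 2 with both other pseudocounts and with TMM scaling, 1 (Fpr2) with no filter on low values, with the FPKM table, with the replicate block and without NOS-null marrow replicates 1 and 2, and 0 with robust variance, which left 11 at an unadjusted p under 0.05. When 1 library was left out it ran from 0 to 7, and over all genes from 44 to 411 called higher and from 27 to 389 called lower, against 262 and 305. With the replicate block, 81 genes were called higher and 54 lower, and without NOS-null marrow replicates 1 and 2, 97 and 84. Deviations of samples with the same number correlated at 0.04, 0.17, 0 and 0.15, and 2 of 4 NOS-null marrow samples correlated best with their own number. No member was called lower under any alternative run. Stage medians kept their sign, but with a pseudocount of 5 the early granule median was the lowest of the 4 at 0.96. Members near 0 are limited by depth: a value under 2.81 to 3.26 scaled reads rests on fewer than 3 reads.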

Other observations

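Acute phase genes that epithelium and liver share with inflamed lung were also measured. Of 7 tested, 0 passed an adjusted p of 0.05 with limma or with a robust variance, 3 stood higher and 1 lower at an unadjusted p under 0.05, and 1, C3, passed without NOS-null marrow replicate 1. The complement gene C3 stood at 4690 to 8532 scaled reads in NOS-null marrow lungs against 3189 to 3870.1 in WT marrow lungs (log2 change 0.70, limma adjusted p = 0.051), with its highest value in NOS-null marrow replicate 2. Saa3, a serum amyloid gene of inflamed tissue, stood at 988, 774, 337 and 620 in the 4 NOS-null marrow lungs by replicate number, against 566, 168, 458 and 129 in the 4 WT marrow lungs, so its groups overlapped.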
